A study of Homo sapiens with 18 samples.

Results

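Polyamine synthesis and breakdown was followed through 9 genes, AMD1, ODC1, SRM, SMS, OAZ1, OAZ2, AZIN1, SAT1 and SMOX, of the 26485 genes listed in each of the deposited tables. They were taken by name, and the set was chosen by the level of AMD1, which lay above its control in all 4 treated groups. The values of AMD1 are therefore given below as a description with no test. The question was whether the other 8 genes moved with it.

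RNA was sequenced from PANC-1, an established human cell line that derives from a pancreatic ductal carcinoma and is labelled as epithelial. Run 1 held cells given a control siRNA or either of the siRNAs against PKR, named PKR siRNA 1 and PKR siRNA 2, and run 2 held cells given the solvent DMSO, 400 nM C16 or 800 nM C16. RNA was taken at 72 h in both runs, and each of the 6 groups had 3 libraries. PKR, encoded by EIF2AK2, is a kinase that is activated by double-stranded RNA and phosphorylates the translation factor eIF2alpha, and C16 is an inhibitor of its kinase activity. All groups shared 1 cell line, and untransfected or solvent-free cells were not analysed here. Since siRNA and C16 were sequenced in different runs, the effect of the run and of the kind of agent cannot be told apart, and every comparison below was made within a run.

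Polyamines are small, positively charged molecules that bind RNA and are needed for growth and for the hypusine modification of the translation factor eIF5A. ODC1 (ornithine decarboxylase) makes putrescine, and AMD1 (S-adenosylmethionine decarboxylase) makes the aminopropyl donor that SRM (spermidine synthase) and SMS (spermine synthase) add to putrescine and spermidine. OAZ1 and OAZ2 encode antizymes, which bind ODC1 protein and send it to the proteasome, and AZIN1 encodes a protein that binds antizymes and so spares ODC1. SAT1 acetylates spermidine and spermine for export or breakdown, and SMOX oxidises spermine back to spermidine. Much of the control of this pathway is known to lie in translation and protein decay, which RNA levels do not show.

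Reads on genes ran from 1512940 to 1873906 in the siRNA table and from 894145 to 1474308 in that of C16, with 9 libraries in each. EIF2AK2 was at 93.5 to 103 normalized counts in the control siRNA libraries, whereas PKR siRNA 1 left 9.65 to 13.6 and PKR siRNA 2 left 7.96 to 9.40. C16 acts on the kinase and its libraries held 39.2 to 54.1 normalized counts of EIF2AK2 in all 3 groups. All 8 epithelial markers, led by KRT8, averaged at least 10 in the siRNA table and 7 did in that of C16, where KRT7 averaged 3.98. PTPRC, DCN, CPA1, INS and GCG, markers of leukocytes, fibroblasts and acinar or islet cells, were at 0 in all 18 libraries. The sum of the 8 epithelial markers moved with the groups, from 5652 to 5716 normalized counts in the control siRNA group to 3271 to 3490 for PKR siRNA 1 and 9916 to 10559.6 for PKR siRNA 2, and from 7368 to 7766 with DMSO to 6212 to 6713 at 400 nM and 5252 to 5789.7 at 800 nM C16. Of the 11 markers of other cell types, 2 averaged at least 10 in the siRNA table (CD68 and COL1A1) and 3 in that of C16 (the same with COL3A1), and their sum moved with the groups too. The control siRNA libraries held 254 to 267 normalized counts, those of PKR siRNA 1 235 to 298 and those of PKR siRNA 2 322 to 329, and the sums were 205 to 235 with DMSO, 289 to 320.1 at 400 nM and 198 to 219.9 at 800 nM. PKR siRNA 2 and 400 nM C16 lay above their controls without overlap, and the part of either sum in the results was not tested.

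Values are the authors' TMM-normalized counts. Differences between groups are log2 fold changes of (normalized count + 1), which slightly understate a change of a low gene, and were tested with limma over all genes of a table, 10593 for siRNA and 9963 for C16, that averaged at least 10. All 9 polyamine genes passed this filter in both tables. A gene is said to have risen or fallen where the Benjamini-Hochberg adjusted p from limma was under 0.05, and to have passed both thresholds where the fold change was also over 1.5. The labels do not say that the 3 libraries of a group were separate cultures, so the p-values measure the spread between these libraries, which may be technical. In bulk RNA, fewer cells in a given state and less RNA per cell cannot be told apart.

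Per kilobase of exon, OAZ1 was the most abundant of the 9 transcripts and SMOX the least in the control groups of both tables. With control siRNA, OAZ1 stood at 559.6 ± 17.8 normalized counts per kilobase (mean ± SD, n = 3), which was higher than 98.6% of the genes tested. SMS at 334 ± 18.0, ODC1 at 313 ± 5.57 and SRM at 242 ± 20.02 followed, and SMS and ODC1 differed by little more than their spread. SAT1 stood at 199 ± 10.9, OAZ2 at 147 ± 5.51 and AZIN1 at 119 ± 2.53, each without overlap with its neighbour in this order. AMD1 and SMOX closed the order at 65.1 ± 3.595 and 49.5 ± 4.44 per kilobase. With DMSO the order was OAZ1, ODC1, SMS, SRM, OAZ2, SAT1, AZIN1, AMD1 and SMOX, and the libraries of SMS and SRM, of OAZ2 and SAT1, of SAT1 and AZIN1, and of AZIN1 and AMD1 overlapped.

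AMD1 lies on the plus strand of chromosome 6 at chr6:110814621-110895712 in hg38, as the files give it, and how reads shared with its 4 GENCODE copies elsewhere in the genome were counted is not given in the sources used here. AMD1 was at 236, 222 and 248 normalized counts in the 3 control siRNA libraries, while PKR siRNA 1 gave 564, 553 and 574 and PKR siRNA 2 gave 381, 441 and 408. Every PKR siRNA library lay above every control library, and the PKR siRNA 1 libraries lay above those of PKR siRNA 2. The log2 fold change was 1.26 (95% CI 1.11 to 1.40) with PKR siRNA 1, a ratio of 2.39 between the means, and 0.80 (95% CI 0.65 to 0.94) with PKR siRNA 2, a ratio of 1.74. In the C16 table AMD1 was at 160.3, 195 and 164 normalized counts with DMSO, at 202, 202 and 238 at 400 nM and at 288, 277 and 272 at 800 nM. The 3 groups did not overlap, although the highest DMSO library, replicate 2, came close to the lowest at 400 nM. Its log2 fold change was 0.31 at 400 nM and 0.69 at 800 nM, where the ratio was 1.61.

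**Figure D1:**
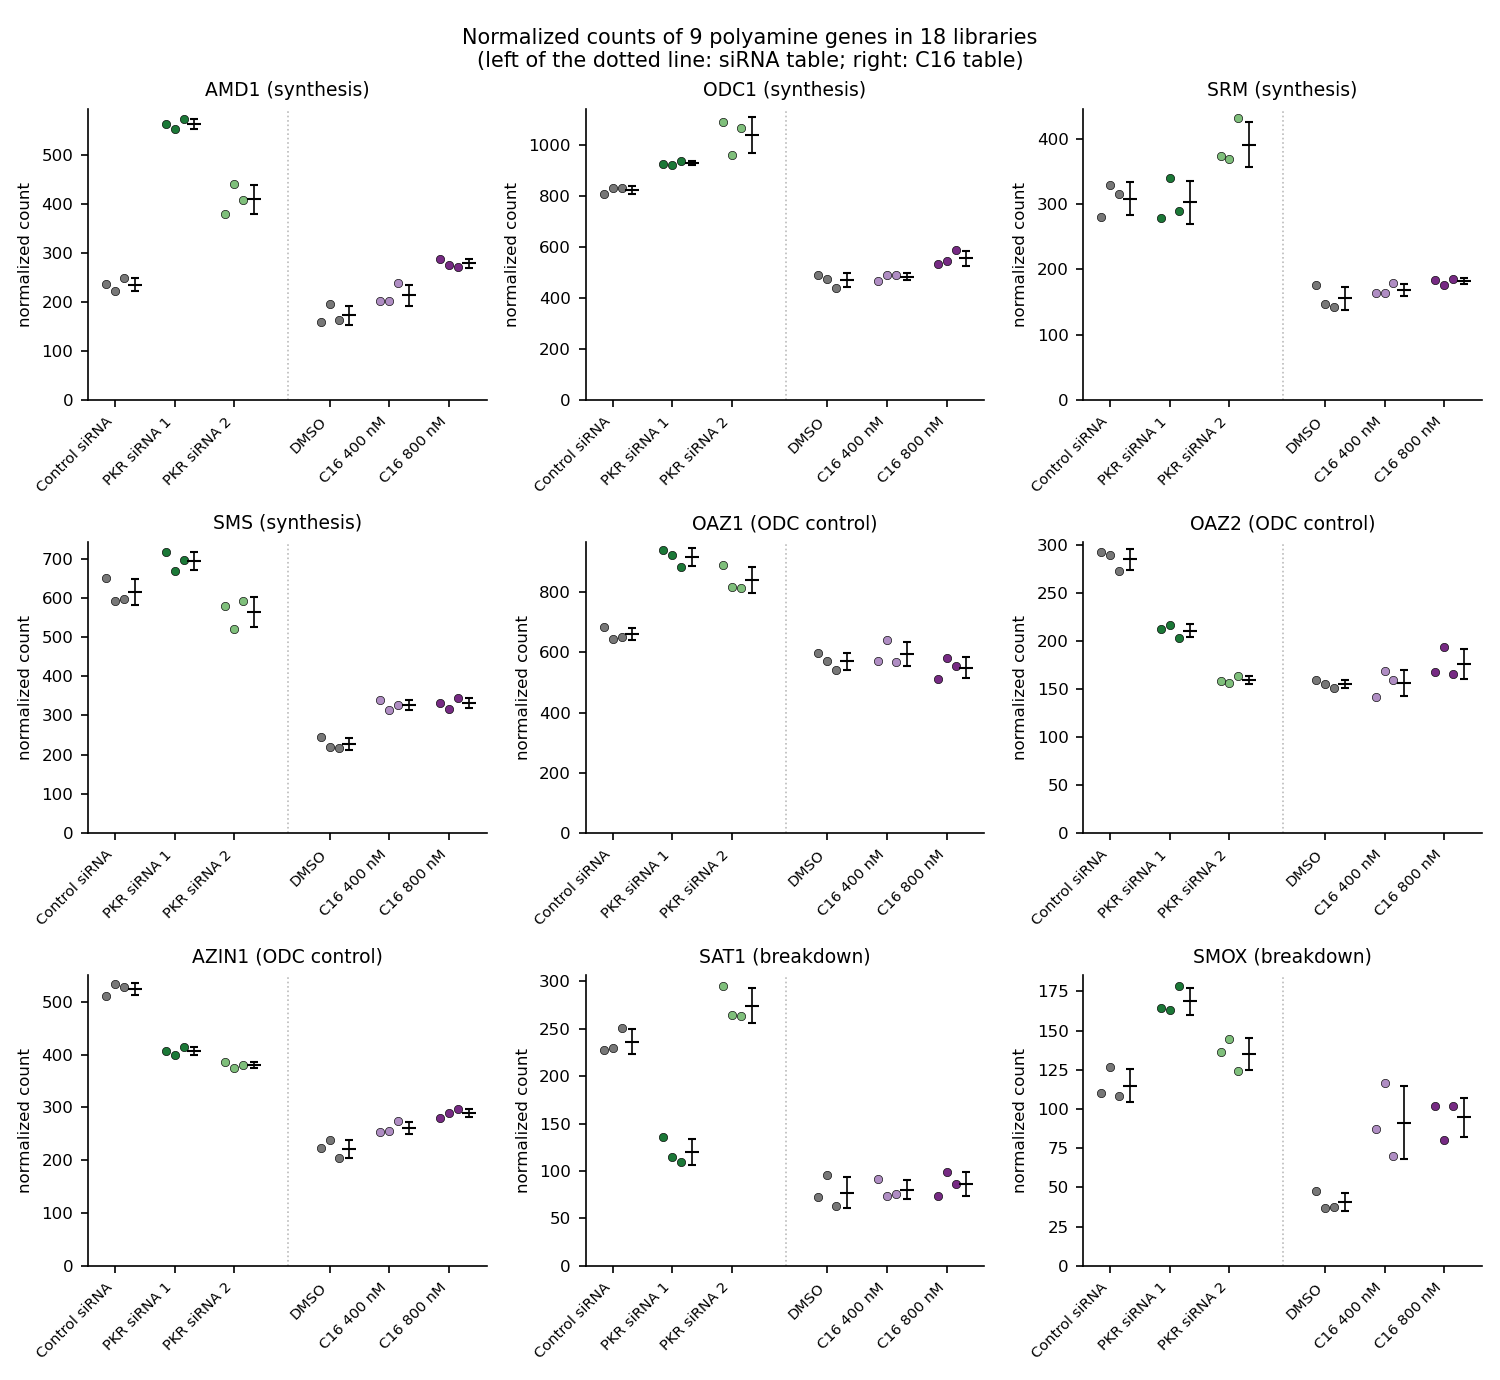
Normalized counts (y axis, from 0) of the 9 polyamine genes in each of the 18 libraries, with the 6 groups on the x axis, the siRNA table left and the C16 table right of the dotted line; points are libraries and bars the mean ± SD of 3 libraries. AMD1 lies above its control in all 4 treated groups, SAT1 falls with PKR siRNA 1 alone among the siRNA groups, and SMOX in the C16 table lies above all DMSO libraries at both doses.

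SMOX had no RefSeq promoter window listed, and AZIN1 was left out of this part, so neither was searched. Windows, here the 250 bases before an annotated start in GRCh38.p14, were taken for 7 of the 9 genes, 10 in all. They are shown for AMD1, which was higher in all treated groups, for SRM, the enzyme that uses its product, whose changes were smaller, and for OAZ2, which fell with both siRNAs. Both strands were searched for the E-box CACGTG, the binding sequence of MYC and MAX, for the cAMP response element core TGACGT, for the CCAAT box and for the TATA box TATAAA. Capitals mark a match on either strand, and a window with none is in lower case throughout. The AMD1 window is at chr6:110874534-110874783 on the plus strand, inside the span the files give the gene and before its second exon block. The SRM window is at chr1:11060019-11060268 and the OAZ2 window at chr15:64703282-64703531, both on the minus strand.
AMD1: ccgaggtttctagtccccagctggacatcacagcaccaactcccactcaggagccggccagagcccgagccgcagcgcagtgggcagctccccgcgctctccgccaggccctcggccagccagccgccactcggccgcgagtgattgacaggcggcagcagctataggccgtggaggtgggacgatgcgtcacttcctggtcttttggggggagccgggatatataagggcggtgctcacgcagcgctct
SRM: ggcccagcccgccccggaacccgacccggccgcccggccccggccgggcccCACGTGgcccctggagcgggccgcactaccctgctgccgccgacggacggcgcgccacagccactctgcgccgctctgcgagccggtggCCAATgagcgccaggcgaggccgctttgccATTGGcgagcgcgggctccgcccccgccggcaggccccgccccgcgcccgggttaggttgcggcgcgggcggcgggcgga
OAZ2: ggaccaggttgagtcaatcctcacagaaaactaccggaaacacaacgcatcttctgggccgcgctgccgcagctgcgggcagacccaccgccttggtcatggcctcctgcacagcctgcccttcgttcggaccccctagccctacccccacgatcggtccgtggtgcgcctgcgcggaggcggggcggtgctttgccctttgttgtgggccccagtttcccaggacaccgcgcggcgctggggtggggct
The SRM window held the E-box 199 bases before the start and the CCAAT box 110 and 80 bases before it, whereas the AMD1 and OAZ2 windows held none of the 4 motifs. Of the windows not shown, ODC1 held an E-box 29 bases before the start in one and the response element core 178 bases before the start in the other. The CCAAT box was also present in the windows of SMS, OAZ1 and SAT1 and in the most upstream AMD1 window. Over all 35116 windows listed, 6.34% held the E-box, 7.10% the response element core, 32.0% the CCAAT box and 10.7% the letters TATAAA. These letters were in 0 of the 10 windows. Only exact matches were counted, so a near match such as tatataag in the AMD1 window shown was not. A match is a description of the sequence, and no binding was measured.

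ODC1, which makes the diamine putrescine, moved upward in 3 of the 4 comparisons, by less than AMD1 in each. It was at 806, 830.4 and 832 normalized counts with control siRNA, while PKR siRNA 1 gave 926, 923 and 938 and PKR siRNA 2 gave 1090.2, 961 and 1067, without overlap between the 3 groups. ODC1 rose by 0.18 (95% CI 0.07 to 0.28, adjusted p = 0.00573) on the log2 scale under PKR siRNA 1 and by 0.33 (95% CI 0.23 to 0.44, adjusted p = 2.43e-07) under PKR siRNA 2. In the C16 table the libraries held 492, 476 and 439 with DMSO, 467, 491 and 492 at 400 nM and 533, 545 and 589.7 at 800 nM. Those at 400 nM overlapped the DMSO libraries, with a log2 fold change of 0.04 (95% CI -0.10 to 0.19, adjusted p = 0.690), and those at 800 nM lay above them, with a log2 fold change of 0.25 (95% CI 0.10 to 0.39, adjusted p = 0.00406). ODC1 lies on the minus strand at chr2:10440371-10448554.

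SRM, which joins the aminopropyl group made by AMD1 to putrescine, rose with PKR siRNA 2 and not measurably with PKR siRNA 1. Its libraries held 280.3, 329.8 and 316 normalized counts with control siRNA, while PKR siRNA 1 gave 279, 341 and 289 and PKR siRNA 2 gave 374, 369 and 432. The PKR siRNA 1 libraries spanned the range of the controls, while those of PKR siRNA 2 lay above it. For PKR siRNA 1 the log2 fold change was -0.03 (95% CI -0.18 to 0.13, adjusted p = 0.800), and for PKR siRNA 2 it was 0.34 (95% CI 0.19 to 0.50, adjusted p = 0.000183). In the C16 table SRM was at 176, 148 and 143 with DMSO, 164, 164 and 179.8 at 400 nM and 185, 177 and 186 at 800 nM. DMSO replicate 1 was the highest of its group and overlapped the 400 nM libraries. The log2 fold changes were 0.12 (95% CI -0.08 to 0.33, adjusted p = 0.386) and 0.23 (95% CI 0.03 to 0.44, adjusted p = 0.0511), and without DMSO replicate 1 the adjusted p at 800 nM was 0.0142. SRM lies on the minus strand at chr1:11054592-11060034.

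SMS, which makes spermine from spermidine, rose with C16 at both doses, whereas its changes with the siRNAs were small. With DMSO its libraries held 244, 219 and 216 normalized counts, at 400 nM 338, 313 and 328 and at 800 nM 333, 317 and 344. All treated libraries lay above all DMSO libraries, and the doses overlapped. SMS rose by 0.53 (95% CI 0.36 to 0.69, adjusted p = 1.08e-06) on the log2 scale at 400 nM and by 0.55 (95% CI 0.38 to 0.71, adjusted p = 1.67e-07) at 800 nM, ratios of 1.44 and 1.46 that stayed under 1.5-fold. With the siRNAs, the libraries held 652, 592 and 598 with control, while PKR siRNA 1 gave 716, 669 and 698 and PKR siRNA 2 gave 579, 521 and 592. SMS rose by 0.18 (95% CI 0.06 to 0.30, adjusted p = 0.0136) under PKR siRNA 1, and the adjusted p was 0.0601 to 0.0660 when control replicate 2, control replicate 3 or PKR siRNA 1 replicate 1 was left out. With PKR siRNA 2 the change was -0.12 (95% CI -0.25 to -0.000429, adjusted p = 0.0928), with 1 of the 3 libraries of that group inside the control range. SMS lies on the plus strand at chrX:21940573-21994837.

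Among the genes that control ODC1 protein, the antizymes moved in opposite directions with both siRNAs. OAZ1 was at 685, 646 and 652 normalized counts with control siRNA, while PKR siRNA 1 gave 941, 925 and 884 and PKR siRNA 2 gave 890.2, 817 and 813. All 6 PKR siRNA libraries lay above the controls, with log2 fold changes of 0.47 (95% CI 0.36 to 0.58, adjusted p = 3.92e-11) and 0.34 (95% CI 0.23 to 0.46, adjusted p = 2.95e-07). OAZ2 was at 293, 290.1 and 273 with control siRNA, while PKR siRNA 1 gave 212, 217 and 204 and PKR siRNA 2 gave 158, 157 and 164. The 3 groups were separate, and OAZ2 fell by 26.1% with PKR siRNA 1 and by 44.1% with PKR siRNA 2. Its log2 fold change was -0.43 (95% CI -0.60 to -0.26, adjusted p = 1.79e-05) with PKR siRNA 1 and -0.83 (95% CI -1.01 to -0.66, adjusted p = 1.23e-13) with PKR siRNA 2, which passed both thresholds. OAZ1 mRNA needs a ribosomal frameshift, promoted by polyamines, to yield full-length antizyme, so its RNA level does not give the level of the protein.

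With C16 the antizymes showed no change past the threshold. OAZ1 was at 597, 572 and 539.9 normalized counts with DMSO, 572, 640.0 and 568 at 400 nM and 512, 581 and 553 at 800 nM, and the groups overlapped. The log2 fold changes were 0.06 (95% CI -0.08 to 0.20, adjusted p = 0.587) and -0.05 (95% CI -0.20 to 0.09, adjusted p = 0.559). OAZ2 was at 159, 155 and 152 with DMSO, 141, 168 and 159.6 at 400 nM and 167, 194 and 166 at 800 nM, with log2 fold changes of 0.01 (95% CI -0.20 to 0.21, adjusted p = 0.970) and 0.17 (95% CI -0.03 to 0.38, adjusted p = 0.163). The OAZ2 libraries at 800 nM all lay above those with DMSO, without a call. The intervals at 800 nM reach from a small fall to a rise for each gene. OAZ1 lies on the plus strand at chr19:2269486-2273488, where 18.6% of its exon bases overlap a GENCODE gene on the same strand and 21.9% one on the opposite strand, and whether counting used strand is not given in the sources used here. OAZ2 lies on the minus strand at chr15:64687574-64703281.

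AZIN1, the inhibitor of the antizymes, fell with both siRNAs and rose with C16. It was at 511, 533 and 527 normalized counts with control siRNA, while PKR siRNA 1 gave 407, 399.99 and 414 and PKR siRNA 2 gave 386, 375 and 381. Every PKR siRNA library lay below every control library, with log2 fold changes of -0.36 (95% CI -0.50 to -0.23, adjusted p = 3.77e-06) and -0.46 (95% CI -0.59 to -0.33, adjusted p = 1.20e-08). In the C16 table the libraries held 222, 238 and 203 with DMSO, 253, 255 and 273 at 400 nM and 280.4, 290.0 and 297 at 800 nM. These groups did not overlap, with log2 fold changes of 0.24 (95% CI 0.06 to 0.41, adjusted p = 0.0351) and 0.39 (95% CI 0.21 to 0.56, adjusted p = 0.000197). The rise at 400 nM lost its call without DMSO replicate 1, DMSO replicate 3, or replicate 2 or 3 at 400 nM, with an adjusted p of 0.0569 to 0.155.

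SAT1, the acetyltransferase that starts the breakdown of spermidine and spermine, gave the widest split between the siRNAs among the 9 genes. It was at 228, 229.9 and 251 normalized counts with control siRNA, while PKR siRNA 1 gave 136, 115 and 109 and PKR siRNA 2 gave 295, 265 and 263. The PKR siRNA 1 libraries lay below and the PKR siRNA 2 libraries above all controls. SAT1 fell by 49.3% with PKR siRNA 1, a log2 fold change of -0.98 (95% CI -1.16 to -0.80, adjusted p = 3.13e-15) that passed both thresholds. Under PKR siRNA 2 it rose by 0.21 (95% CI 0.03 to 0.40, adjusted p = 0.0465), and this call was lost without control replicate 1 or 2 (adjusted p = 0.143 and 0.119) and without any of the PKR siRNA 2 libraries (0.0522 to 0.220). The sum of the epithelial markers given above moved the same way with the siRNAs, lower with PKR siRNA 1 and higher with PKR siRNA 2. Most of that sum came from KRT8, KRT18 and KRT19. With C16 the sum fell at both doses, whereas SAT1 showed no change past the threshold. The part of the sum in the SAT1 result was not tested. With DMSO the SAT1 libraries held 72.9, 95.2 and 63.2, at 400 nM 91.5, 73.8 and 75.5 and at 800 nM 73.6, 98.7 and 85.9, with overlap between all groups. The log2 fold changes were 0.07 (95% CI -0.21 to 0.36, adjusted p = 0.753) and 0.17 (95% CI -0.12 to 0.45, adjusted p = 0.353). SAT1 lies on the plus strand at chrX:23783158-23786223, with 7.58% of its exon bases in another GENCODE gene of the same strand.

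SMOX, the spermine oxidase, had the largest fold change with C16 among the 9 genes. In the C16 table it was at 47.6, 37.1 and 37.3 normalized counts with DMSO, at 87.2, 116 and 70.2 at 400 nM and at 102, 80.4 and 102 at 800 nM. All treated libraries lay above all DMSO libraries, and the libraries at 400 nM were spread widely around their mean of 91.3 ± 23.4 (SD, n = 3). SMOX had a log2 fold change of 1.13 (95% CI 0.82 to 1.43, adjusted p = 4.14e-08) at 400 nM and 1.20 (95% CI 0.89 to 1.51, adjusted p = 2.89e-09) at 800 nM, and both passed both thresholds. These values rest on 39 to 49 reads in the DMSO libraries and 66 to 107 in the treated ones. With the siRNAs SMOX was at 109.9, 127 and 108 with control, while PKR siRNA 1 gave 164, 163 and 179 and PKR siRNA 2 gave 136, 145 and 124. The PKR siRNA 1 libraries lay above the controls, with a log2 fold change of 0.55 (95% CI 0.34 to 0.76, adjusted p = 7.70e-06), a ratio of 1.47. With PKR siRNA 2 the groups overlapped, with a log2 fold change of 0.23 (95% CI 0.02 to 0.44, adjusted p = 0.0595), and the adjusted p was 0.0252 without control replicate 2 and 0.0364 without PKR siRNA 2 replicate 3. SMOX lies on the plus strand at chr20:4148779-4187747.

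Counted over the 8 genes other than AMD1, 4 rose and 3 fell with PKR siRNA 1, beside 21.1% of all genes tested that rose and 23.9% that fell. Of the 8, 0 passed both thresholds upward and 1, SAT1, downward, beside 8.53% and 12.6% of all genes. With PKR siRNA 2, 4 rose and 2 fell, beside 22.1% and 25.2% of all genes, and 0 passed both thresholds upward and 1, OAZ2, downward, beside 10.8% and 12.8%. With 400 nM C16, 3 rose and 0 fell, beside 14.6% and 11.9%, and 1, SMOX, passed both thresholds upward and 0 downward, beside 7.08% and 5.45%. With 800 nM C16, 4 rose and 0 fell, beside 22.3% and 22.6%, and 1, SMOX, passed both thresholds upward and 0 downward, beside 11.6% and 14.1%. The median log2 fold change of the 8 genes was 0.07 and 0.22 with the siRNAs and 0.10 and 0.24 with the C16 doses, and that of all genes was between -0.01 and 0.00. The counts of 0 were also 0 with edgeR and DESeq2 on the recovered reads and at an unadjusted limma p under 0.05, as were those between the siRNAs and between the doses below. AMD1, by whose rise the set was chosen, was over 1.5-fold higher with both siRNAs and at 800 nM. None of the other 8 genes was so in all of these comparisons. The share of all genes that were so was not counted here, and the study listed few. This does not set the 8 genes apart from other genes. Both siRNA comparisons share the control siRNA libraries, and both dose comparisons share the DMSO libraries.

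**Figure D2:**
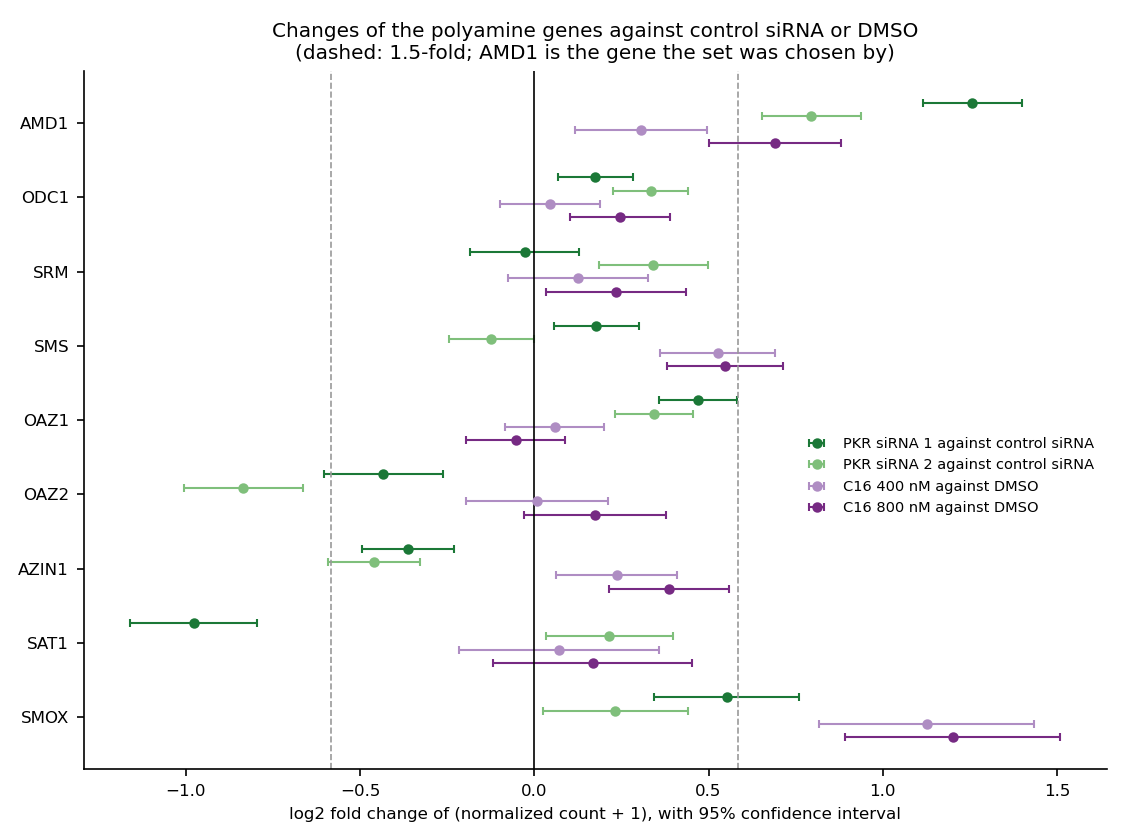
Log2 fold changes of (normalized count + 1) on the x axis for the 9 polyamine genes (y axis) in the 4 comparisons with control, as points with 95% confidence intervals from limma and dashed lines at 1.5-fold. AMD1, by which the set was chosen and which was not tested, lies right of 0 throughout. The intervals drawn for AMD1 show the spread of the libraries and are not a test of its rise. SAT1 with PKR siRNA 1 (-0.98) and OAZ2 with PKR siRNA 2 (-0.83) lie beyond the lower line. SMOX with C16 (1.13 and 1.20) lies beyond the upper one.

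The siRNAs were also compared with each other, which shows where their effects on these genes differed. Of the 8 tested genes, 3 were higher and 4 lower with PKR siRNA 2 than with PKR siRNA 1, beside 27.7% and 29.3% of all genes, and 1 passed both thresholds upward and 0 downward, beside 16.4% and 15.3%. That gene was SAT1, with a log2 difference of 1.19 (95% CI 1.01 to 1.37, adjusted p = 1.43e-19). SRM was higher by 0.37 (95% CI 0.21 to 0.53, adjusted p = 3.98e-05) and ODC1 by 0.16 (95% CI 0.05 to 0.27, adjusted p = 0.00928), although ODC1 lost its call without PKR siRNA 2 replicate 1 (adjusted p = 0.0882). OAZ2 differed by -0.40 (95% CI -0.57 to -0.23, adjusted p = 4.55e-05), SMS by -0.30 (95% CI -0.42 to -0.18, adjusted p = 2.08e-05) and SMOX by -0.32 (95% CI -0.53 to -0.11, adjusted p = 0.00666), all lower with PKR siRNA 2. The SMOX call was lost without PKR siRNA 2 replicate 3 (adjusted p = 0.0521). OAZ1 differed by -0.13 (95% CI -0.24 to -0.01, adjusted p = 0.0480), a call that was lost without control replicate 1 or 3, PKR siRNA 1 replicate 1 or 2 or PKR siRNA 2 replicate 2 or 3, with an adjusted p of 0.0516 to 0.164. AZIN1 differed by -0.10 (95% CI -0.23 to 0.04, adjusted p = 0.218). AMD1 differed by -0.46, lower with PKR siRNA 2, which was not tested.

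Between the doses of C16, 1 of the 8 genes was higher at 800 nM and 0 lower, beside 5.09% and 9.18% of all genes, and 0 passed both thresholds in either direction, beside 1.13% and 3.95%. The gene was ODC1, with a log2 difference of 0.20 (95% CI 0.06 to 0.34, adjusted p = 0.0496), and its call was lost without DMSO replicate 2, any library at 400 nM, or replicate 2 or 3 at 800 nM, with an adjusted p of 0.0638 to 0.229. For SMS and SMOX, which had risen at both doses, the differences between the doses were 0.02 (95% CI -0.14 to 0.19, adjusted p = 0.899) and 0.08 (95% CI -0.23 to 0.38, adjusted p = 0.798). AMD1 was higher at 800 nM than at 400 nM by 0.38, which was not tested.

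The balance within the pathway was described by ratios of normalized counts per kilobase in each library, with no test. The ratio of AMD1 to ODC1 was 0.208 ± 0.0119 (SD, n = 3) with control siRNA, 0.440 ± 0.00491 under PKR siRNA 1 and 0.288 ± 0.0407 under PKR siRNA 2. It was 0.268 ± 0.0305 with DMSO, 0.321 ± 0.0276 at 400 nM and 0.365 ± 0.0293 at 800 nM. AMD1 RNA thus stayed below ODC1 RNA per kilobase in all 18 libraries. The gap narrowed in each treated group, without overlap with the controls, which the choice of the set by AMD1 favours. At 400 nM the separation was slight, with replicate 2 at 0.2982 beside DMSO replicate 2 at 0.2976. The ratio of OAZ2 to OAZ1 was 0.264 ± 0.00965 with control siRNA against 0.140 ± 0.00270 and 0.116 ± 0.00728 with the PKR siRNAs, and was 0.167 ± 0.00425, 0.161 ± 0.0103 and 0.195 ± 0.0108 with DMSO, 400 nM and 800 nM C16. The ratio of SMS to SRM was 1.39 ± 0.195, 1.60 ± 0.218 and 0.9999 ± 0.0636 in the siRNA groups, where PKR siRNA 1 overlapped the controls, and 1.01 ± 0.0451, 1.34 ± 0.0851 and 1.26 ± 0.0195 in the C16 groups. The ratio of SAT1 to SMOX, acetylation against oxidation, was 4.05 ± 0.5001 with control siRNA, 1.40 ± 0.209 under PKR siRNA 1 and 3.99 ± 0.359 under PKR siRNA 2. It was 3.78 ± 1.09 with DMSO, 1.80 ± 0.485 at 400 nM and 1.82 ± 0.516 at 800 nM, so that PKR siRNA 1 and both doses of C16 lay below their controls and PKR siRNA 2 did not.

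**Figure D3:**
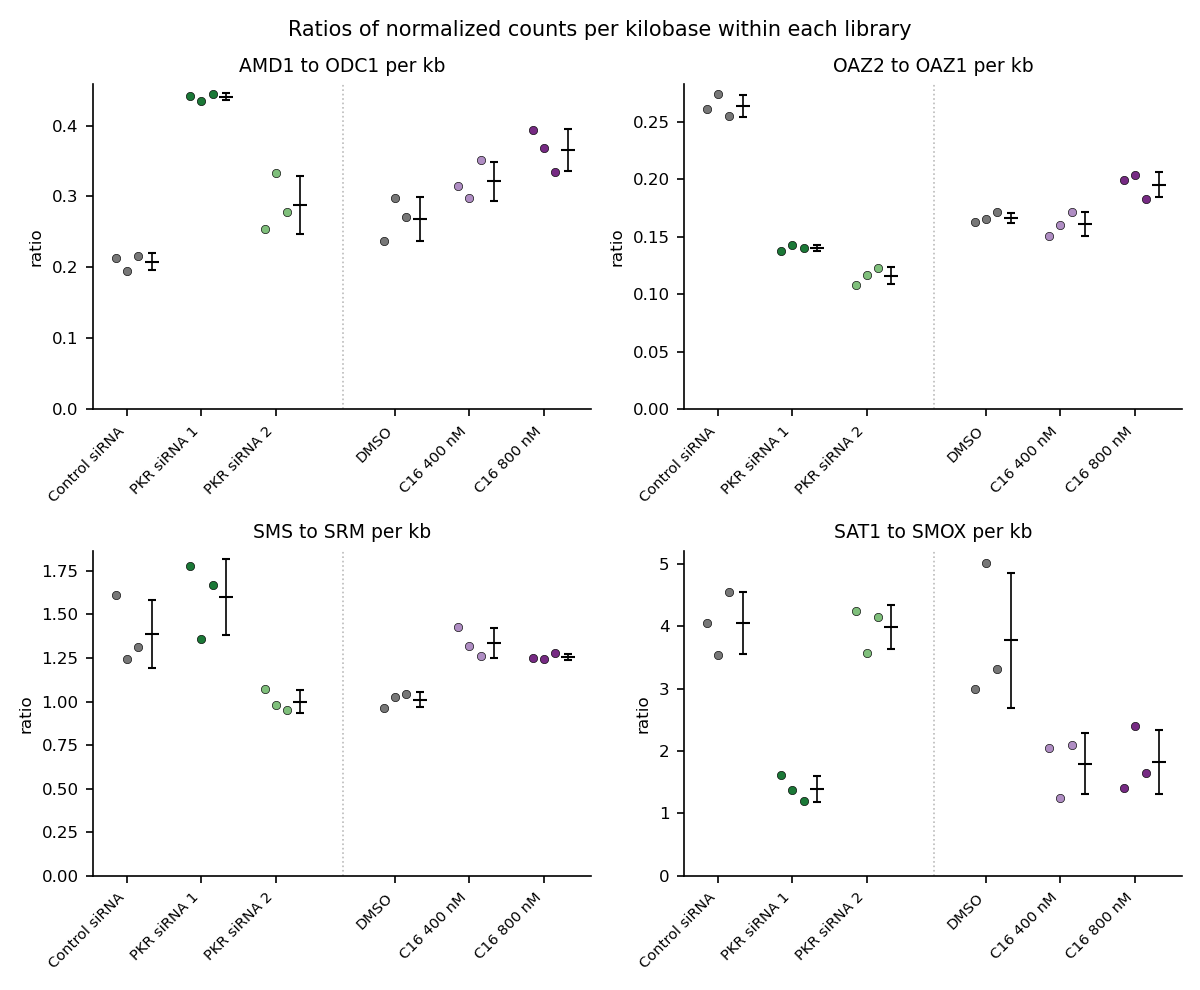
Ratios of normalized counts per kilobase within each library (y axis, from 0) for AMD1 to ODC1, OAZ2 to OAZ1, SMS to SRM and SAT1 to SMOX, by group (x axis); points are libraries and bars the mean ± SD of 3 libraries. The AMD1 to ODC1 ratio lies above its control in all treated groups, and the SAT1 to SMOX ratio lies below its control with PKR siRNA 1 and with C16.

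Beyond the 9 genes, 34 further genes of polyamine metabolism were listed, which supply S-adenosylmethionine or ornithine, salvage the by-product methylthioadenosine, hypusinate eIF5A, break polyamines down or carry them across membranes. Relatives of such genes, such as AHCYL1 and AHCYL2, were listed with them. Of these, 26 averaged at least 10 in the siRNA libraries and 23 in those of C16. With PKR siRNA 1, 3 of 26 passed both thresholds upward and 5 downward, beside 8.53% and 12.6% of all genes. With PKR siRNA 2 they were 0 and 2, beside 10.8% and 12.8%. AHCYL2, a relative of the S-adenosylhomocysteine hydrolase, made the upward count with PKR siRNA 2 reach 1 in edgeR and DESeq2. With 400 nM C16, 4 of 23 passed upward and 1 downward, beside 7.08% and 5.45% of all genes. At 800 nM they were 4 and 3, beside 11.6% and 14.1%. The median log2 fold changes over the listed genes were -0.01, 0.02, 0.08 and 0.20 in the same order of comparisons. The organic cation transporter genes SLC22A2 and SLC22A3 were at 0 in all 18 libraries. The filter runs over all groups, so it can drop a gene that changes. PAOX, a polyamine oxidase, averaged 11.8 with DMSO, 4.76 at 400 nM and 2.39 at 800 nM and was not tested there. Some dropped genes went up, such as ARG2, at 5.15, 10.5 and 7.34. With PKR siRNA 1, PAOX had a log2 fold change of -1.19 (limma, adjusted p = 0.00302), and with PKR siRNA 2 of 0.06 (adjusted p = 0.897).

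Of the transport genes, SLC7A1, SLC3A2 and ATP13A3 rose at both doses of C16. ATP13A2, a related ATPase that exports polyamines from lysosomes, did not pass the test, with log2 fold changes of 0.30 (95% CI -0.01 to 0.60, adjusted p = 0.146) and 0.20 (95% CI -0.10 to 0.51, adjusted p = 0.286), and it fell with PKR siRNA 2, a log2 change of -0.41 (95% CI -0.66 to -0.17, adjusted p = 0.00355). SLC7A1, which imports arginine and ornithine, was at 138, 120.0 and 158 normalized counts with DMSO, 265, 292 and 277 at 400 nM and 235, 196 and 231 at 800 nM, with log2 fold changes of 1.01 (95% CI 0.81 to 1.20, adjusted p = 1.29e-12) and 0.67 (95% CI 0.48 to 0.87, adjusted p = 7.14e-08). It also rose with PKR siRNA 1, from 236, 244 and 251 to 402, 379 and 388, by 0.67 (95% CI 0.52 to 0.83, adjusted p = 8.43e-12), and stood at 257, 235 and 257 with PKR siRNA 2. All its treated libraries lay above their controls except those of PKR siRNA 2, which overlapped them. SLC3A2, the heavy chain of several amino acid transporters that is also linked to polyamine transport, was at 158, 174 and 176 with DMSO, 388, 334 and 340.4 at 400 nM and 289, 327 and 266 at 800 nM, log2 changes of 1.06 (95% CI 0.88 to 1.24, adjusted p = 6.96e-15) and 0.79 (95% CI 0.61 to 0.97, adjusted p = 7.55e-11). Its log2 changes were 0.23 (adjusted p = 0.00291) with PKR siRNA 1 and 0.05 (adjusted p = 0.607) with PKR siRNA 2. At 800 nM against 400 nM, SLC3A2 differed by -0.27 (adjusted p = 0.0311), SLC7A1 by -0.33 (adjusted p = 0.0145) and ATP13A3 by 0.02 (adjusted p = 0.886). When a library was left out, the adjusted p reached 0.205 for SLC3A2 and 0.125 for SLC7A1. ATP13A3, a P-type ATPase of polyamine uptake, was at 248, 278 and 254 with DMSO, 414, 389.8 and 466 at 400 nM and 439, 420.4 and 427 at 800 nM, log2 changes of 0.70 (95% CI 0.54 to 0.86, adjusted p = 1.95e-10) and 0.72 (95% CI 0.56 to 0.88, adjusted p = 3.23e-11). With PKR siRNA 2 it went the other way, from 697, 622 and 673 with control siRNA to 258, 240.2 and 280.3, a log2 change of -1.35 (95% CI -1.49 to -1.22, adjusted p = 2.99e-30). PKR siRNA 1 gave 755, 751 and 852, a log2 change of 0.24 (95% CI 0.11 to 0.37, adjusted p = 0.00185).

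The other genes past both thresholds in at least 2 of the 4 comparisons with control were MAT2B, MTAP and EIF5A2. MAT2B, the regulatory subunit of the enzyme that makes S-adenosylmethionine, was at 130.2, 106 and 95.9 normalized counts with DMSO, 60.6, 62.3 and 43.6 at 400 nM and 39.3, 54.8 and 46.8 at 800 nM, log2 changes of -0.99 (95% CI -1.30 to -0.68, adjusted p = 1.14e-06) and -1.22 (95% CI -1.53 to -0.91, adjusted p = 2.72e-09). It also fell with PKR siRNA 1, from 111, 105 and 118 to 82.2, 69.8 and 68.5, a log2 change of -0.59 (95% CI -0.84 to -0.35, adjusted p = 3.63e-05), and stood at 98.5, 116 and 118 with PKR siRNA 2. MTAP, which recycles the methylthioadenosine that SRM and SMS release, was low, at 20.5, 16.1 and 24.6 with control siRNA and 13.6, 10.5 and 7.61 with DMSO. It rose by 0.84 (95% CI 0.37 to 1.31, adjusted p = 0.00249) with PKR siRNA 1, by 0.75 (95% CI 0.17 to 1.32, adjusted p = 0.0455) at 400 nM and by 0.94 (95% CI 0.37 to 1.52, adjusted p = 0.00581) at 800 nM, values that rest on few reads, from 10 to 14 in the DMSO libraries. The call at 400 nM was lost in 6 of the 8 other settings in which MTAP was tested and in 5 of the 9 fits without 1 library (DMSO replicate 2 or 3, C16 400 nM replicate 1 or 3, or C16 800 nM replicate 1), with an adjusted p of up to 0.203. EIF5A2, an isoform of the protein that spermidine modifies, was at 106, 111 and 108 with control siRNA, while PKR siRNA 1 gave 70.0, 53.5 and 93.6 and PKR siRNA 2 gave 40.8, 47.2 and 35.7, and the PKR siRNA libraries all lay below the controls. Its log2 fold changes were -0.61 (95% CI -0.91 to -0.31, adjusted p = 0.000593) and -1.38 (95% CI -1.68 to -1.08, adjusted p = 1.81e-12), and with C16 they were 0.05 (95% CI -0.25 to 0.34, adjusted p = 0.853) at 400 nM and 0.37 (95% CI 0.08 to 0.67, adjusted p = 0.0351) at 800 nM.

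**Figure D4:**
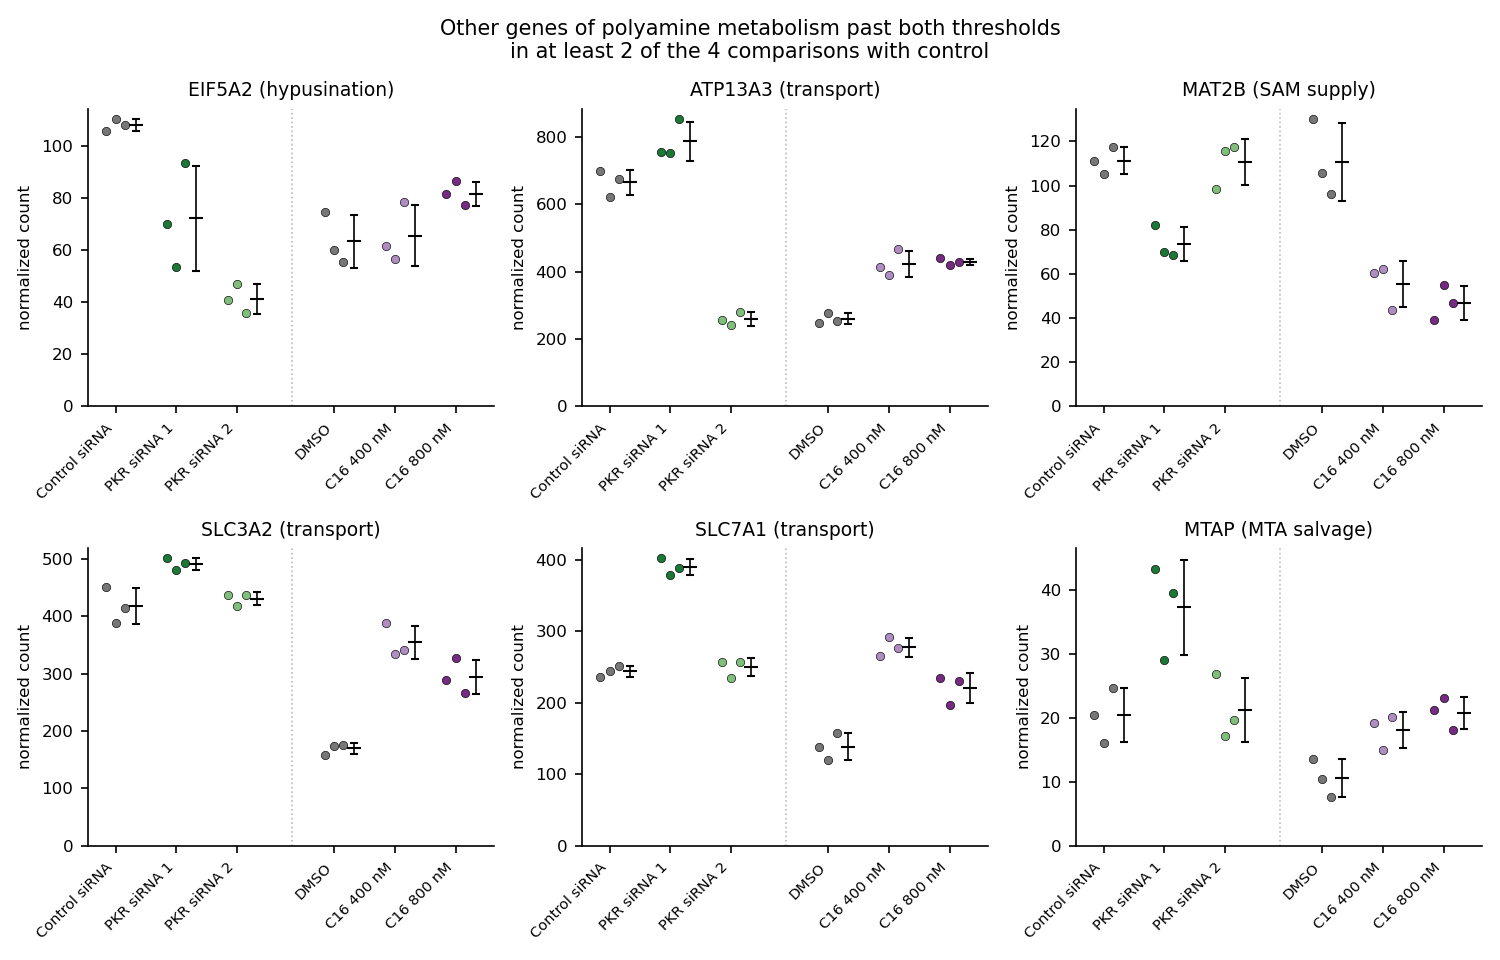
Normalized counts (y axis, from 0) by group (x axis) of the 6 other genes of polyamine metabolism that passed both thresholds in at least 2 of the 4 comparisons with control; points are libraries, bars the mean ± SD of 3 libraries, and the dotted line parts the siRNA table from the C16 table. SLC7A1, SLC3A2 and ATP13A3 lie above DMSO at both doses of C16, and ATP13A3 and EIF5A2 lie below control siRNA with PKR siRNA 2.

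The likeness of other genes to AMD1 was described by Pearson's r over the 18 libraries, after the log2 values were centred on the mean of each table, among 5276 genes that averaged at least 50 in both tables. The points share libraries and control groups, so no p-value is given. The mean runs over all groups, so that EAF1 (41.6 with control siRNA and 34.3 with DMSO) and SMOX (40.7 with DMSO) entered through the groups where they were higher, and this minimum favours genes that are higher in treated libraries. The highest values were those of TMEM97 (r = 0.963), DPY19L1 (r = 0.959), GEMIN5 (r = 0.939), EAF1 (r = 0.936) and WBP11 (r = 0.933). TMEM97, for example, averaged 60.7 normalized counts with control siRNA, 135 under PKR siRNA 1 and 87.7 under PKR siRNA 2, and 83.3, 99.4 and 136 with DMSO, 400 nM and 800 nM C16. Of the polyamine genes, OAZ1 (r = 0.69), ODC1 (r = 0.64), SMOX (r = 0.61) and SMS (r = 0.49) came next to AMD1, SRM had r = 0.23, and AZIN1 (r = -0.24), OAZ2 (r = -0.43) and SAT1 (r = -0.45) had negative values. The closest of them, OAZ1, ranked at place 324 of the genes compared.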

How the data were processed

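The authors made strand-specific RNA-seq libraries from polyadenylated RNA of PANC-1 cells. Per the submitters' processing notes and the methods of the study, reads were mapped to hg38 with TopHat, assigned to genes and normalized by TMM, in a separate table for each run. The deposited values are a signal, namely normalized counts per gene, that is, counts divided by a factor of each library. In all 18 libraries 100% of values were whole multiples of 1 read within 0.01 reads, so reads were recovered for the count tests. In PKR siRNA 2 replicate 1 and C16 800 nM replicate 1 this step is near 1 and cannot be told from rounding. The annotation and the strand setting of counting are not given in the sources used here, and how reads shared with copies of AMD1, SRM, SMS and OAZ1 elsewhere in the genome were counted is not given either.

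From these values, log2(normalized count + 1) was fitted with limma 3.58.1 in R 4.3.3 (lmFit, eBayes with trend, two-sided), with the 9 libraries of a table in 1 fit and no covariate, over genes with a mean of at least 10. P-values were adjusted by Benjamini-Hochberg over all genes tested, and the thresholds of the study, adjusted p under 0.05 and a fold change over 1.5, were used. Levels per kilobase use the exon length in the files. As alternatives, each library was left out, recovered reads were tested with DESeq2 1.42.0 and the quasi-likelihood test of edgeR 4.0.16, the pseudocount was set to 0.5 or 5, the filter was dropped or raised to a mean of 30, values were rescaled by median of ratios, the replicate number was added as a block, and just the libraries of the comparison were fitted. The scripts were tested on simulated data. Same-numbered libraries did not deviate together (correlations from -0.05 to 0.03), so replicate numbers were not taken as pairs.

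The 9 genes and the lists were chosen with earlier results of these data known. Genes were named by rule if they were among the 9, EIF2AK2, markers, other polyamine genes past both thresholds in at least 2 of the 4 comparisons with control or at 0 in all libraries, or the 5 genes most like AMD1. AHCYL2, ATP13A2, PAOX, ARG2 and the genes of the last observations fall outside this rule and were chosen after their values were seen. Replicates differed by more than sampling noise in all 18 pairs within groups, and none were merged. Depth limits the precision of low genes, more so in the C16 table.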

Additional observations from a re-analysis of the deposited data

Results flagged for a closer look

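For 8 results of the 8 tested genes, the difference between the siRNAs or between the doses was itself past the threshold (limma, Benjamini-Hochberg adjusted p). The other listed genes were not searched for such differences here. With PKR siRNA 2 against PKR siRNA 1, SAT1 was higher by 1.19 on the log2 scale (adjusted p = 1.43e-19), SRM by 0.37 (3.98e-05) and ODC1 by 0.16 (0.00928). OAZ2 differed by -0.40 (4.55e-05), SMOX by -0.32 (0.00666), SMS by -0.30 (2.08e-05) and OAZ1 by -0.13 (0.0480), all lower with PKR siRNA 2. For SAT1 the effects had opposite signs against control siRNA, -0.98 for PKR siRNA 1 and 0.21 for PKR siRNA 2, with all 3 libraries of each group on its side of the controls. For OAZ2, -0.43 and -0.83, the effects had the same sign and differed in size. EIF2AK2 was low with both siRNAs, at a mean of 11.1 and 8.65 normalized counts against 97.4 with control siRNA. Between the doses of C16, ODC1 was higher by 0.20 at 800 nM (adjusted p = 0.0496). The calls of ODC1 in both comparisons, and those of SMOX and OAZ1, were lost without certain single libraries, as given above.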

How the results depend on the processing

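Of the tested values of the 8 genes, 414 of 432 kept their direction and their side of adjusted p 0.05 under the alternatives other than leaving out a library, and 390 of 432 when a library was left out, where 26 lost their call, 3 gained one and 13 changed sign. AMD1 was not tested and was judged by the size of its shift alone, which was less than its SD within groups throughout. At 400 nM its log2 fold change ran from 0.227 to 0.395 when a library was left out. The count of genes past both thresholds upward with PKR siRNA 1 was 0 to 1 when a library was left out, with SMOX counted without control replicate 2, and at 800 nM C16 it was 1 to 2, with SMS added without DMSO replicate 1. OAZ2 at 400 nM was -0.00730 with median-of-ratios rescaling and -0.00582 with DESeq2. When a library was left out, values near 0 changed sign: OAZ2 at 400 nM ran from -0.0478 to 0.0771, ODC1 at 400 nM from -0.00228 to 0.0799, SAT1 at 400 nM from -0.0597 to 0.232, and SRM with PKR siRNA 1 from -0.116 to 0.0291. Between the doses, SAT1 ran from -0.00667 to 0.202, SMOX from -0.0962 to 0.265 and SMS from -0.00872 to 0.0528. Without the filter and with DESeq2, adjusted p was 0.0556 and 0.162 for AZIN1 at 400 nM, 0.0684 and 0.0829 for SAT1 with PKR siRNA 2, 0.0872 and 0.115 for OAZ1 between siRNAs, and 0.0968 and 0.0943 for ODC1 between doses. SRM at 800 nM passed with edgeR (0.0337), a minimum mean of 30 (0.0449), a pseudocount of 5 (0.04995) and rescaling by median of ratios (0.0436), and without DMSO replicate 1 (0.0142). The replicate block, with numbers that did not pair the samples, gave adjusted p = 0.0521 for ODC1 between doses and changed no other call of the 8 genes. Among all genes, a minimum mean of 30 left 296 lower at 400 nM against 543, 800 at 800 nM against 1403, and 231 between doses against 394, with fewer genes tested; DESeq2 called 51 higher and 137 lower between doses, against 113 and 394. Of the other polyamine genes, 3 in place of 5 passed downward with PKR siRNA 1 at a pseudocount of 5, and 1 in place of 0 upward with PKR siRNA 2 with edgeR or DESeq2. At 400 nM, 3 in place of 4 passed upward with rescaling by median of ratios, a pseudocount of 5, a minimum mean of 30, the libraries of the comparison alone, the replicate block or DESeq2. The 1.5-fold threshold was missed by EIF5A2 with PKR siRNA 1 at a pseudocount of 5, with edgeR or DESeq2 and without PKR siRNA 1 replicate 2 (-0.414), by MAT2B with PKR siRNA 1 without control replicate 3 or PKR siRNA 1 replicate 2 or 3, and by SLC7A1 at 800 nM without DMSO replicate 2 (0.574). The cause of these changes was not tested.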

Other observations

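The 7 genes listed under supply of S-adenosylmethionine, the substrate of AMD1, include AHCYL1 and AHCYL2, relatives of the S-adenosylhomocysteine hydrolase. Whether both share its activity was not tested. Of the 7, 1 rose with PKR siRNA 1, AHCYL2, and 3 fell, AHCYL1 among them (limma, adjusted p under 0.05). Of all genes, 21.1% and 23.9% did. With PKR siRNA 2, 4 of the 7 rose, both relatives among them, where 22.1% of all genes did. At 400 nM C16, 2 fell, where 11.9% of all genes did, and at 800 nM 1 rose and 3 fell, where 22.3% and 22.6% did. Their median log2 fold changes were -0.28, 0.32, -0.15 and -0.25, and those of all genes lay between -0.0113 and 0.00204. AHCY, the hydrolase of S-adenosylhomocysteine, did not pass the test in these comparisons, at -0.11 to 0.13, and MTR did not pass either. AHCYL2 rose with both siRNAs, by 0.74 and 0.57, and MTRR rose by 0.49 with PKR siRNA 2 and by 0.44 at 800 nM (adjusted p = 0.000729 and 0.0174). The genes given here were named after their values were seen. MAT2A, the catalytic subunit that makes S-adenosylmethionine, was at 727, 808 and 758 normalized counts with control siRNA, while PKR siRNA 1 gave 638, 607 and 612 and PKR siRNA 2 gave 953, 1008 and 900.0. It fell by 0.30 on the log2 scale with PKR siRNA 1 and rose by 0.32 with PKR siRNA 2 (limma, adjusted p = 8.09e-06 and 2.78e-06), and the difference between the siRNAs was 0.62 (95% CI 0.51 to 0.74, adjusted p = 9.06e-16). With C16 it went from 605, 631 and 624 with DMSO to 469, 413 and 455 at 400 nM and 373, 328 and 346 at 800 nM, with log2 fold changes of -0.48 (95% CI -0.63 to -0.33, adjusted p = 7.18e-07) and -0.83 (95% CI -0.98 to -0.68, adjusted p = 2.29e-14). The 3 groups did not overlap in either table. AHCYL1, a relative of the enzyme that removes S-adenosylhomocysteine, had log2 fold changes of -1.04 (95% CI -1.19 to -0.88, adjusted p = 3.83e-20) with PKR siRNA 1 and 0.46 (95% CI 0.30 to 0.61, adjusted p = 4.98e-07) with PKR siRNA 2. AHCYL1 was at -0.18 at 400 nM and -0.25 at 800 nM C16 (adjusted p = 0.158 and 0.0264).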
